A study of Homo sapiens with 4 samples.

Results

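The urea cycle and ammonia genes examined here were CPS1, OTC, ASS1, ASL, ARG1, ARG2, NAGS, SLC25A15, SLC25A13 and GLS2, chosen by name and found by their NCBI Gene numbers, 10 of the 46427 genes listed for each library. RNA was sequenced from Huh7 and HepG2 cells, 2 established human liver tumour lines, to ask how loss of COP1, an E3 ubiquitin ligase, alters transcripts in liver cancer cells. Each line received either siRNA against COP1 (COP1-siRNA) or the negative control (NC-siRNA), at 20 nM in a 5 h lipid transfection, and cells were harvested at 48 h. The libraries held polyadenylated, strand-specific RNA. There was 1 library per line and siRNA, 4 in all, so no difference below has a replicate check and none is given with a p-value. Each line is also a single tumour line, and what is described as a difference between lines is a difference between 1 library and another.

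The urea cycle turns ammonia, which is toxic to the brain, into urea in hepatocytes. Carbamoyl phosphate is made from ammonia in the mitochondrion and joined to ornithine to give citrulline, which leaves for the cytosol. There it takes up a second nitrogen from aspartate, is split into arginine and fumarate, and arginine is hydrolysed to urea and ornithine, which returns to the mitochondrion. The whole cycle is a specialised function of the liver, whereas its cytosolic enzymes also serve arginine synthesis in many other cells.

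Levels are given as TPM, a measure that corrects for transcript length and allows genes to be compared within a library. A difference is the log2 of (TPM + 1) in one library over (TPM + 1) in another, and 2-fold, a log2 difference of 1 in either direction, was the threshold. A gene was counted in a comparison when it reached 1 TPM in at least 1 of the 2 libraries. Depth could be judged only in relative terms, from coverage per unit of FPKM, which was 1.13 times as high with COP1-siRNA as with NC-siRNA in Huh7 and 1.27 times as high in HepG2. The number of reads behind a value is therefore unknown. Levels written as a pair are those with NC-siRNA and then with COP1-siRNA. COP1 itself stood at 19.7 and 6.18 TPM in Huh7 and at 26.9 and 16.1 TPM in HepG2, so 31.4% and 59.9% were left. All 10 hepatocyte markers reached 1 TPM in every library, but they summed to 18951 and 16478 TPM in Huh7 and only 3416 and 4068 TPM in HepG2. Of 4 leukocyte markers, PTPRC, CD3E and LST1 were listed at 0 in all 4 libraries and CD68 was at 15.6 to 58.2 TPM. At 1 TPM or more were 3 of 3 fetal liver markers and 2 of 4 cholangiocyte markers in each library, and at most 1 of 3 endothelial and 1 of 4 fibroblast markers. In such bulk RNA, fewer cells that express a gene and less RNA per cell cannot be told apart.

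Neither line held all members at 1 TPM or more, and the members under that level differed between the lines. In Huh7, the genes of ornithine transcarbamylase (OTC) and of liver glutaminase (GLS2) were listed at 0 with either siRNA. In HepG2, OTC and the gene of the liver arginase (ARG1) were both under 1 TPM. In each of the 4 libraries 8 of the 10 genes reached 1 TPM, and the 10 together summed to 190 and 196 TPM in Huh7 and to 237 and 243 TPM in HepG2. With NC-siRNA the order from high to low was ASL, SLC25A13, ASS1, SLC25A15, ARG2, CPS1, ARG1 and NAGS in Huh7. In HepG2 it was ASS1, SLC25A13, SLC25A15, ARG2, CPS1, ASL, NAGS, GLS2, OTC and ARG1. With COP1-siRNA the order was the same in Huh7, and in HepG2 SLC25A15 and ARG2, as well as NAGS and GLS2, changed places. These orders are by TPM and differ by coverage on the TPM scale, described further on. By that measure, with NC-siRNA, ASS1 (19.1) lay below SLC25A13 (52.3), SLC25A15 (25.6) and ARG2 (24.1) in HepG2. In Huh7 CPS1 (0.93) lay below NAGS (1.49). Without replicates there is no spread by which neighbours in an order could be told apart.

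**Figure D1:**
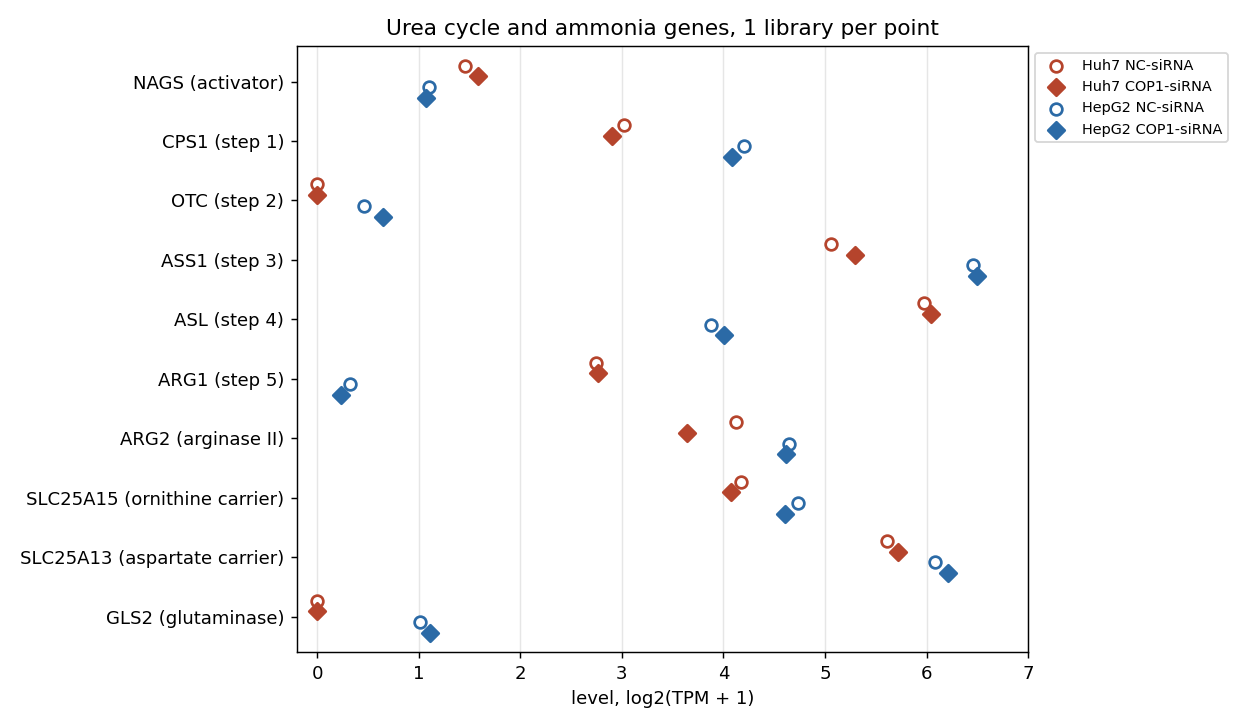
Level of each urea cycle and ammonia gene, as log2(TPM + 1) on the horizontal axis, in Huh7 (red) and HepG2 (blue) with NC-siRNA (open circles) or COP1-siRNA (filled diamonds); each point is 1 library, so there are no error bars. The points of 1 line lie close together for most genes, while the lines are far apart for ARG1 (5.69 against 0.254 TPM with NC-siRNA) and ASL (61.8 against 13.7 TPM).

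The promoters of 4 genes are shown because they encode the successive enzymes ASS1 and ASL and the alternative arginases. They are the 250 bases before the start of 1 RefSeq entry per gene on GRCh38.p14, written along the gene's own strand, and all 10 members had an entry. Capitals mark matches on either strand to the GC box GGGCGG (in 42.6% of 35116 promoters of the same length), the TATA box TATAAA (10.7%), the cAMP response element half-site TGACG (21.2%), which the full element TGACGTCA (1.65%) contains, the C/EBP core TTNCNNAA (33.2%), the HNF4 core CAAAGTCCA (0.325%), the ATF4 composite TGATGNAA (3.14%) and the E-box CACGTG (6.34%).
ARG1, chr6:131572976-131573225, plus strand: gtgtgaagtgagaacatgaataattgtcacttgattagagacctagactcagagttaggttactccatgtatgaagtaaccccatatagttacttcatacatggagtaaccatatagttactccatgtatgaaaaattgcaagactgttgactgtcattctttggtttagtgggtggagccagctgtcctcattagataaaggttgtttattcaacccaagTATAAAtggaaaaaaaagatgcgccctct
ARG2, chr14:67619670-67619919, plus strand: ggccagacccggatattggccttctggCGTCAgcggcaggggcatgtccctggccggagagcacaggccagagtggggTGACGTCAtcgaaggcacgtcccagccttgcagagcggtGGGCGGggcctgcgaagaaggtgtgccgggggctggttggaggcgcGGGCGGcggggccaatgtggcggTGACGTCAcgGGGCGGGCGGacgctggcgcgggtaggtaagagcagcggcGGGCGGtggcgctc
ASS1, chr9:130444457-130444706, plus strand: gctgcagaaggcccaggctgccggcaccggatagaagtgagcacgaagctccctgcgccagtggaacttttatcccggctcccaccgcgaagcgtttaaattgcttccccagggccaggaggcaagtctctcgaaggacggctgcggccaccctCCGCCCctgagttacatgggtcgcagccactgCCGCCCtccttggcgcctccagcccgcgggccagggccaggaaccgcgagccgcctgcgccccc
ASL, chr7:66075569-66075818, plus strand: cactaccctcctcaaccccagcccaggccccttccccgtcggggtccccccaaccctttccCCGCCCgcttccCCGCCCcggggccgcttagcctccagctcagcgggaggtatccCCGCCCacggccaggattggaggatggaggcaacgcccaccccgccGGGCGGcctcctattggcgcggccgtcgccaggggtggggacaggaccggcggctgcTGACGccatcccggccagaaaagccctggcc
The ARG1 promoter was 37.6% G and C and held a TATA box that began 29 bases before the start and no other match. The ARG2 promoter was 72.4% G and C and held 5 GC boxes and 2 full cAMP response elements, which began 172 and 64 bases before the start and account for 4 of its 5 half-sites. The ASS1 promoter (68.4% G and C) held 2 GC boxes, and that of ASL (74.0%) held 4 GC boxes and 1 half-site 31 bases before the start. The median over all promoters was 58.0% G and C. Among the other members, the windows of CPS1 (33.6%) and OTC (40.4%) were also below that median, and each held 2 C/EBP cores. Both of these windows lie inside the RefSeq gene, whose first base is at 210477685 for CPS1 (window 210593105 to 210593354) and at 38327684 for OTC (window 38352354 to 38352603), so they stand for an internal start. That of OTC also runs past the start in the deposited tables, 38352528. The windows of NAGS and SLC25A13 likewise run past the deposited starts, 44004546 and, on the minus strand, 96322147. That of GLS2 lies wholly inside the deposited gene, which starts at 56488414 on the minus strand. The windows of NAGS, GLS2, SLC25A13 and SLC25A15 ranged from 65.6% to 79.6% G and C, and each held at least 1 GC box. A match describes letters in this window and not the binding of a factor.

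Of the genes of the mitochondrial entry, CPS1 was past 2-fold lower in Huh7 by TPM, and NAGS was near 1 TPM in both lines. By coverage the call of CPS1 depended on the 1 added to each level. NAGS makes N-acetylglutamate, without which carbamoyl phosphate synthetase is inactive (gene 162417, chromosome 17, 44004546 to 44009068, plus strand). It stood at 1.73 and 1.99 TPM in Huh7 and at 1.15 and 1.10 TPM in HepG2. CPS1, which makes carbamoyl phosphate and is among the most abundant proteins of liver mitochondria (gene 1373, chromosome 2, 210477685 to 210679107, plus strand), stood at 7.14 and 6.45 TPM in Huh7 and 17.4 and 16.0 TPM in HepG2. Both HepG2 libraries were above both Huh7 libraries for CPS1, and the reverse held for NAGS. The share of all genes that separate in this way is not given, and the libraries of a line are not replicates. Between the lines, CPS1 had a log2 difference (Huh7 minus HepG2) of -1.17 with NC-siRNA and -1.19 with COP1-siRNA, and NAGS had 0.35 and 0.51, short of 2-fold. Of all genes counted, 77.8% and 66.1% differed by at least as much as NAGS, and 35.0% and 32.1% by at least as much as CPS1. By coverage over relative depth the difference of CPS1 was -0.53 and -0.48, and by coverage on the TPM scale, described further on, it was -0.77 and -0.75. These values also have 1 added, which is large beside levels by coverage of 0.93 in Huh7 and 2.30 in HepG2 with NC-siRNA. The level by coverage was 0.131 to 0.132 times the TPM in every library. The plain ratio of CPS1 between the lines was therefore nearly the same by coverage on the TPM scale as by TPM.

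The second mitochondrial step was hardly represented. OTC joins carbamoyl phosphate to ornithine (gene 5009, chromosome X, 38352528 to 38421446, plus strand). It was listed at 0 in both Huh7 libraries and at 0.375 and 0.572 TPM in the HepG2 libraries, where the mean coverage was 0.852 and 1.63 reads per base. It was under 1 TPM in all 4 libraries and so entered no comparison.

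Argininosuccinate synthetase and lyase act one after the other in the cytosol, and their genes differed between the lines in opposite directions. ASS1 joins citrulline to aspartate (gene 445, chromosome 9, 130444707 to 130501274, plus strand). It stood at 32.2 and 38.2 TPM in Huh7 and at 86.9 and 89.2 TPM in HepG2. ASL splits the product into arginine and fumarate (gene 435, chromosome 7, 66075819 to 66093576, plus strand), and it stood at 61.8 and 65.1 TPM in Huh7 and at 13.7 and 15.0 TPM in HepG2. The libraries of the lines did not overlap for either gene. The share of all genes that separate in this way is not given, and the libraries of a line are not replicates. ASS1 was lower in Huh7 by a log2 difference of -1.40 with NC-siRNA and -1.20 with COP1-siRNA, and ASL was higher by 2.09 and 2.04. The summed level of both genes was 94.1 and 103 TPM in Huh7 and 101 and 104 TPM in HepG2, but by coverage on the TPM scale it was 66.3 and 70.9 in Huh7 and 32.2 and 33.8 in HepG2. Within the summed TPM ASS1 had 34.3% and 37.0% in Huh7 and 86.4% and 85.6% in HepG2, and by coverage 11.2% and 11.7% in Huh7 and 59.3% and 57.9% in HepG2.

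The arginases hydrolyse arginine to ornithine and urea, ARG1 in the cytosol of hepatocytes and ARG2 in the mitochondria of many tissues. ARG1 (gene 383, chromosome 6, 131573226 to 131584329, plus strand) stood at 5.69 and 5.80 TPM in Huh7 and at 0.254 and 0.174 TPM in HepG2. ARG2 (gene 384, chromosome 14, 67619920 to 67651708, plus strand) stood at 16.4 and 11.5 TPM in Huh7 and at 24.1 and 23.6 TPM in HepG2. ARG2 was thus the more abundant arginase transcript in every library. ARG1 had 25.7% and 33.5% of the summed arginase level in Huh7 but 1.05% and 0.732% in HepG2. The plain TPM ratio of ARG1, Huh7 over HepG2, was 22.4 with NC-siRNA and 33.4 with COP1-siRNA, and the log2 differences with 1 added to each TPM were 2.42 and 2.53. ARG1 shares 10364 bases with MED23 on the opposite strand, at 14.5 to 20.5 TPM over the libraries, and ARG2 shares 4624 bases with VTI1B on the opposite strand, at 35.4 to 38.0 TPM. The protocol kept strand, but whether the counting used it was not given in the sources used here, so reads in the shared parts are uncertain.

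**Figure D2:**
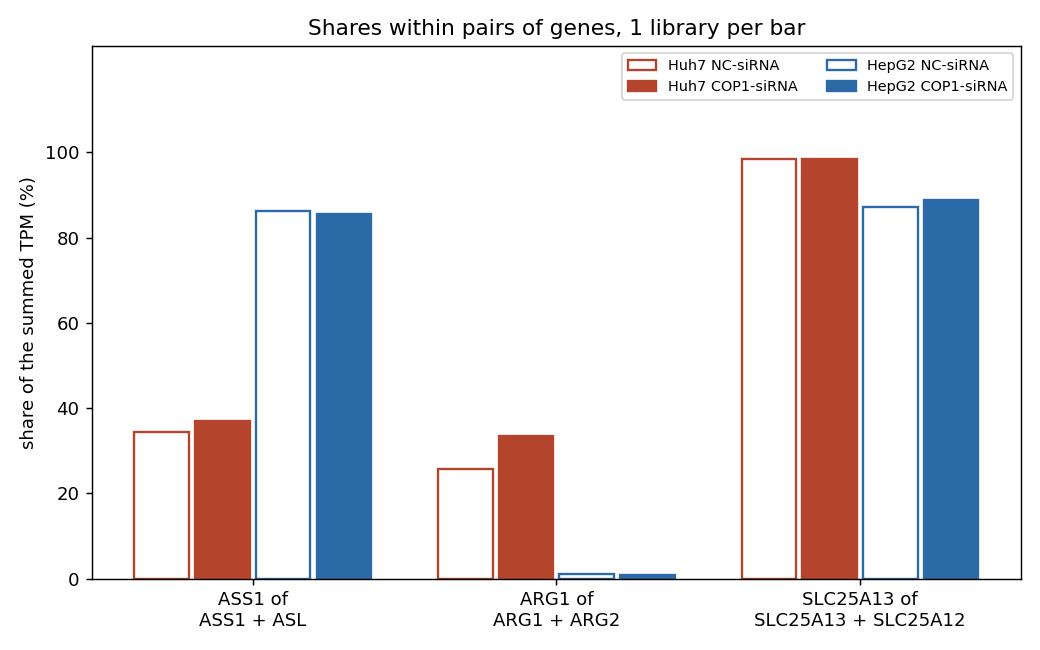
Percentage of the summed TPM of a pair of genes that the first-named gene held, for 3 pairs in the 4 libraries; each bar is 1 library and the axis starts at 0. ASS1 held 34.3% of the ASS1 and ASL sum in Huh7 NC-siRNA and 86.4% in HepG2 NC-siRNA, and ARG1 held 25.7% and 1.05% of the arginase sum.

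Both mitochondrial carriers were well above 1 TPM in all libraries and differed between the lines by less than 2-fold. SLC25A15, the ornithine and citrulline exchanger (gene 10166, chromosome 13, 40789611 to 40812460, plus strand), stood at 17.0 and 15.8 TPM in Huh7 and 25.6 and 23.3 TPM in HepG2. SLC25A13, or citrin, which brings aspartate out of the liver mitochondrion (gene 10165, chromosome 7, 96120220 to 96322147, minus strand), stood at 47.9 and 51.5 TPM in Huh7 and 67.0 and 73.0 TPM in HepG2. By TPM SLC25A13 was the second most abundant member in each library. By coverage on the TPM scale it was above ASS1 in HepG2, at 52.3 against 19.1 with NC-siRNA. The log2 differences between the lines were -0.57 and -0.54 for SLC25A15 and -0.48 and -0.49 for SLC25A13, below 2-fold. SLC25A12, or aralar, the form of the aspartate carrier found in brain and muscle, was at 0.742 and 0.835 TPM in Huh7 and 9.77 and 9.18 TPM in HepG2. SLC25A13 accordingly had 98.5% and 98.4% of the sum of the pair in Huh7 and 87.3% and 88.8% in HepG2.

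The liver glutaminase was at or near the limit for counting. GLS2, the liver enzyme that frees ammonia from glutamine (gene 27165, chromosome 12, 56470944 to 56488414, minus strand), was listed at 0 in both Huh7 libraries and stood at 1.02 and 1.16 TPM in HepG2. Its log2 difference between the lines was -1.01 with NC-siRNA and -1.11 with COP1-siRNA, values that depend on the 1 TPM added because Huh7 was listed at 0. GLS2 shares 8765 bases with SPRYD4 on the opposite strand, at 2.58 to 7.03 TPM.

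Near copies added little. Of 14 ASS1 pseudogenes only ASS1P2 was above 0, at no more than 0.238 TPM, the ASL pseudogene ASLP1 lay between 0.196 and 0.761 TPM, and the pseudogenes of ARG2 and SLC25A15 were listed at 0. How reads that fit both a gene and its copy were divided is not given in the sources used here.

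In all, 9 members were counted between the lines. With NC-siRNA, 2 of them (ASL and ARG1) were at least 2-fold higher in Huh7, where 14.7% of the 15055 genes counted were, and 3 (CPS1, ASS1 and GLS2) were at least 2-fold lower, where 27.9% of all genes were. With COP1-siRNA the same 5 genes were past 2-fold in the same directions, beside 14.0% of 15126 genes higher and 26.0% lower in Huh7. The shares of all genes are large, and counts of 2 and 3 of 9 members are not far from them. The call of CPS1 did not hold with coverage in place of TPM, median-of-ratios scaling or quantile normalization, at -0.53, -0.86 and -0.90 with NC-siRNA. That of GLS2 with NC-siRNA ended with these and also with FPKM (-0.53) and upper-quartile scaling (-0.98), and GLS2 was not counted at a minimum of 5 TPM or by the plain ratio. For CPS1 and GLS2, FPKM and coverage are smaller numbers than TPM, so the same 1 added shrinks their differences more. The plain ratio of CPS1 between the lines was nearly the same by coverage on the TPM scale as by TPM. The call of ASS1 ended with median-of-ratios scaling with COP1-siRNA (-0.88), while ASL and ARG1 passed under every setting tried. The hepatocyte markers had a median of 2.66 with NC-siRNA, with 8 of 10 past 2-fold higher in Huh7 and 0 lower, and their part in the members' differences was not tested. Among all genes, 12.8% differed by at least as much as ASL and 7.72% by at least as much as ARG1 with COP1-siRNA, against 31.5% for ASS1 and 32.1% for CPS1. The median of all genes was itself -0.37 with NC-siRNA and -0.35 with COP1-siRNA. Relative to it, ASL stood at 2.46 and 2.39, ARG1 at 2.78 and 2.88, ASS1 at -1.03 and -0.86 and CPS1 at -0.81 and -0.84. The carriers were lower in Huh7 by amounts close to that median, at -0.11 and -0.15 for SLC25A13 and -0.20 and -0.19 for SLC25A15 relative to it. ARG2 was at -0.16 with NC-siRNA and -0.63 with COP1-siRNA relative to it, and its own difference with COP1-siRNA was -0.98, just short of 2-fold.

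**Figure D3:**
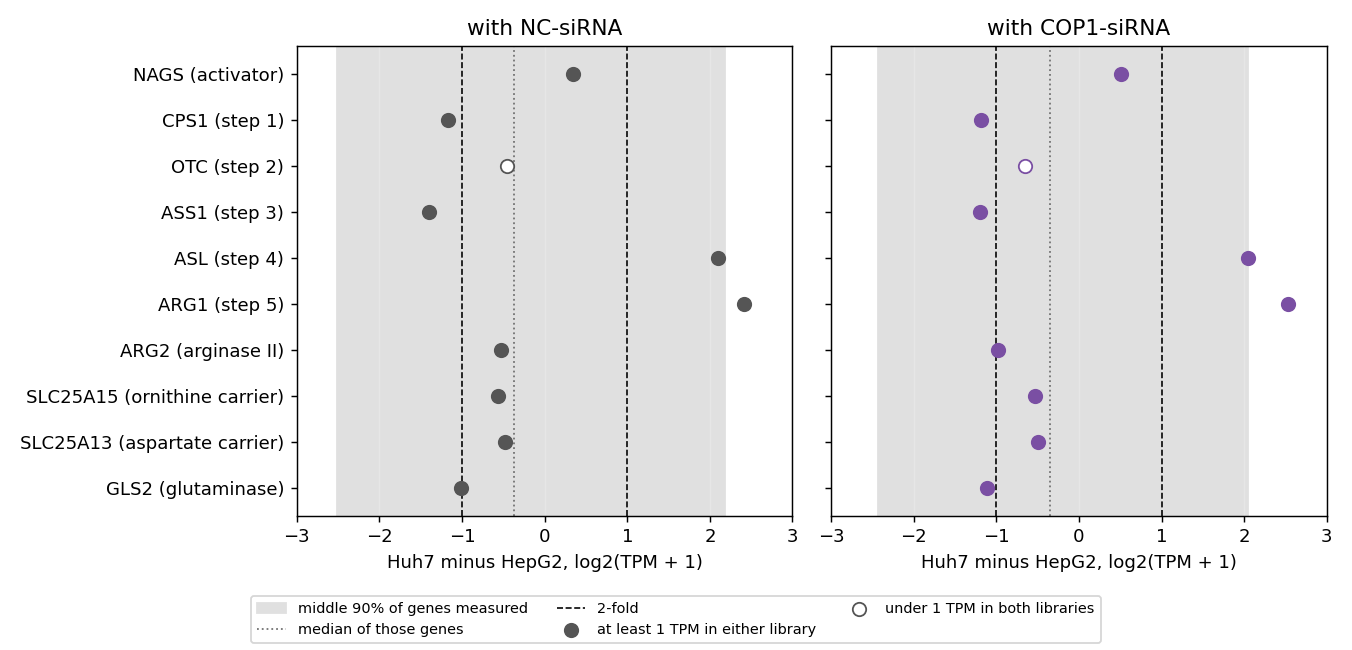
Log2 difference between Huh7 and HepG2 (positive values are higher in Huh7) of each member with NC-siRNA and with COP1-siRNA, on the log2(TPM + 1) scale; each point compares 1 library with 1 library. ASL (2.09 and 2.04) and ARG1 (2.42 and 2.53) lie past 2-fold on the side of Huh7, and ASS1 (-1.40 and -1.20) and CPS1 (-1.17 and -1.19) on the side of HepG2.

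COP1-siRNA moved no member past 2-fold in either line. In Huh7, 0 of 8 members counted were past 2-fold, beside 1.08% of 13000 genes, and in HepG2 0 of 8, beside 0.934% of 14456 genes. With 8 genes and so low a background, a count of 0 does not set the members apart. COP1, the target, had a log2 difference of -1.53 in Huh7 but of -0.71 in HepG2, itself short of 2-fold there. The median difference of the members was 0.048 in Huh7, with 5 above and 3 below 0, and 0.0041 in HepG2, with 4 above and 4 below. Over all genes the medians were -0.00083 and -0.0080. The same libraries hold the hepatocyte markers, whose median difference was -0.12 in Huh7, with 9 of 10 below 0, and 0.41 in HepG2, with all 10 above 0; their part in the members' values was not tested.

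The member that differed most with COP1-siRNA was ARG2 in Huh7, at 16.4 and 11.5 TPM. Its log2 difference was -0.48, a size reached by 9.24% of all genes counted, and it lay just outside the range of -0.47 to 0.45 that held the middle 90% of them. In HepG2 the difference of ARG2 was -0.03. ASS1 came next in Huh7, at 0.24, a size that 31.4% of genes reached, and it was at 0.04 in HepG2. The other members counted lay between -0.13 and 0.13 in both lines. CPS1 (-0.13 in Huh7 and -0.11 in HepG2) and SLC25A15 (-0.10 and -0.13) were below 0 in both lines, and ASL (0.07 and 0.12) and SLC25A13 (0.10 and 0.12) were above 0 in both. ARG1 was at 0.02 in Huh7 and was too low to be counted in HepG2. Of the 7 members counted in both lines, 6 had the same sign in both, or 85.7%, beside 60.2% of 11970 genes. Differences this small have no error to be set against.

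**Figure D4:**
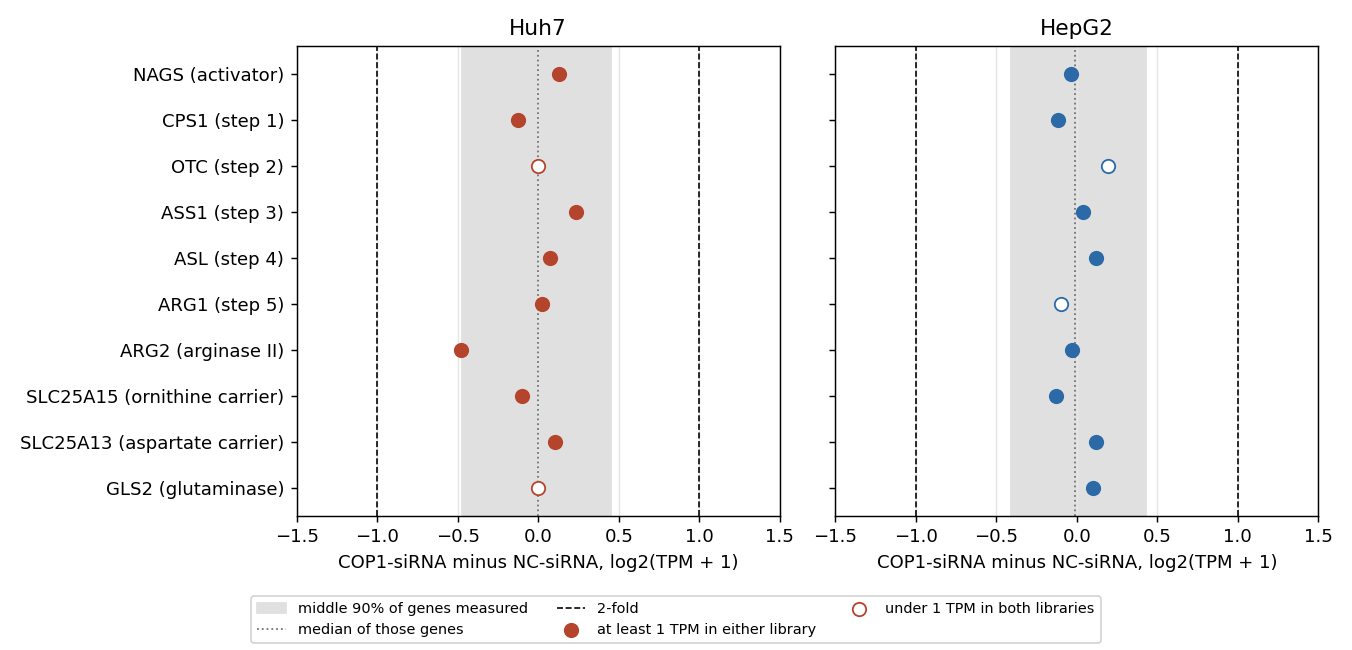
Log2 difference between COP1-siRNA and NC-siRNA of each member by cell line, on the log2(TPM + 1) scale, with the range that held the middle 90% of all genes counted in each line. Each point compares 1 library with 1 library; ARG2 in Huh7, at -0.48, is the point farthest from 0.

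The deposited coverage gave another view of the levels. Coverage, the average depth of reads along a gene, was put on the TPM scale by the most common ratio of coverage to FPKM in each library. Of genes above 1 FPKM, 20.9% to 22.3% had that ratio. For ARG2 and SLC25A15, which have 1 RefSeq transcript each, the level by coverage was 1.00 times the TPM, and for ARG1, ASL, OTC, NAGS, GLS2 and SLC25A13 it was 0.78 to 1.00 times. CPS1 and ASS1 stood apart, at 0.131 to 0.132 and 0.218 to 0.230 times, where the median over genes of at least 1 TPM was 0.833 to 0.838 times. Between 6.44% and 6.78% of those genes had a ratio as low as that of CPS1, and 11.4% to 12.1% one as low as that of ASS1. On that scale CPS1 was at 0.93 and 0.85 in Huh7 and 2.30 and 2.11 in HepG2, and ASS1 at 7.42 and 8.33 in Huh7 and 19.06 and 19.59 in HepG2. The opposite order of ASS1 and ASL in the lines did not change on that scale. The ratios were nearly equal over the 4 libraries for each gene. The level of CPS1 or ASS1 beside that of another member thus depended on which deposited column was read, and the part that the division of reads among transcripts has in this was not tested.

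**Figure D5:**
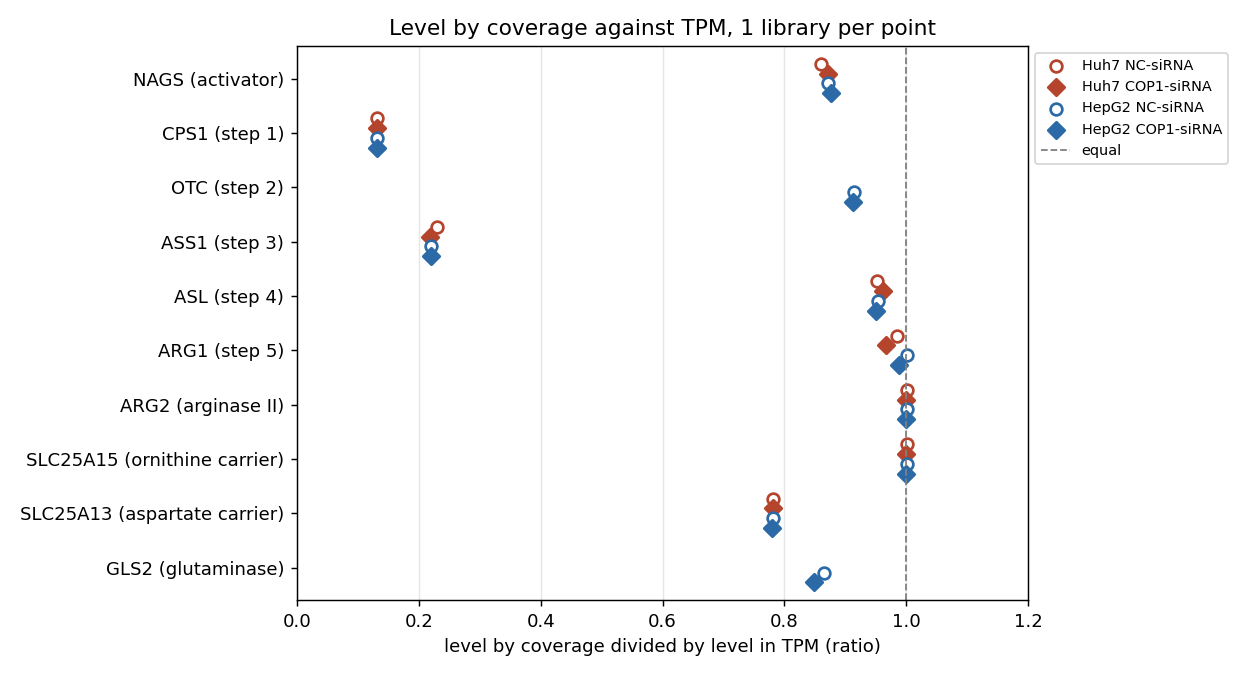
Level by coverage divided by level in TPM for each member and library (points as in the plot of levels); the dashed line marks equal values, and genes listed at 0 have no point. CPS1 (0.131 to 0.132) and ASS1 (0.218 to 0.230) lie far to the left of the other members in all 4 libraries.

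The genes around the cycle were counted in 5 lists of known function, and differences between the lines are given for them as log2(TPM + 1), Huh7 minus HepG2, with NC-siRNA. Of all genes, 14.7% were past 2-fold higher and 27.9% lower, and no list was tested against these shares. Of 11 genes of nitrogen entry, 1 was past 2-fold higher in Huh7 and 5 were past 2-fold lower. GLUD2, a glutamate dehydrogenase, was higher by 2.16, and CA5A, the mitochondrial carbonic anhydrase that supplies bicarbonate to CPS1, was lower, at 0.128 TPM in Huh7 and 4.40 TPM in HepG2. CAD, which starts pyrimidine synthesis from carbamoyl phosphate of its own, had a log2 difference of -1.32, and ASNS, asparagine synthetase, one of -1.65. On the aspartate and fumarate side, 1 of 9 was higher (GOT1, the cytosolic aspartate aminotransferase, 1.47) and 3 were lower, the mitochondrial carriers SLC25A11 (-1.05), SLC25A22 (-1.54) and SLC25A12 (-2.63). Among genes of ornithine, arginine and polyamines, 4 of 19 counted were higher and 7 lower. GATM, which uses arginine to start creatine synthesis, was at 22.9 TPM in Huh7 and 0.259 TPM in HepG2, and OAT, ornithine aminotransferase, at 53.9 and 200.3 TPM. DDAH2 and AGMAT were also higher in Huh7, by 2.36 and 2.05, and AZIN2 was lower, at 0.014 against 1.99 TPM. NOS3, endothelial nitric oxide synthase, was listed at 0 in Huh7 and at 8.64 TPM in HepG2.

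Transporters of the plasma membrane and regulators had more genes past 2-fold higher than lower in Huh7 with NC-siRNA. Of 13 transporters counted, 4 were higher and 2 were lower, beside 14.7% and 27.9% of all genes. With COP1-siRNA the counts were 3 and 3, beside 14.0% and 26.0%. The differences of SLC38A4 and SLC7A2, carriers of neutral and of cationic amino acids, were 4.69 and 1.96, and those of SLC7A1 and SLC7A5 were -1.28 and -1.05. SLC7A7, an exporter of arginine and ornithine, was higher in Huh7 by 3.72. Of 12 regulators, 6 were higher and 1 was lower, with a median of 1.46 beside -0.37 over all genes. FOXA2 and CEBPA, transcription factors of hepatocytes, were higher by 4.39 and 2.78, and PPARA, at 2.13 TPM in Huh7 and 5.29 TPM in HepG2, was just past 2-fold lower. Against NC-siRNA, 0 of the 60 list genes counted in HepG2 were past 2-fold with COP1-siRNA, beside 0.934% of all genes, and in Huh7 1 of 59 was, SLC7A7, beside 1.08%. It stood at 14.6 and 35.8 TPM in Huh7, a log2 difference of 1.23, and at 0.189 and 0.968 TPM in HepG2, where it was too low to be counted. In Huh7 the list medians with COP1-siRNA were -0.23 for nitrogen entry, -0.11 for aspartate and fumarate, -0.05 for ornithine, arginine and polyamines, -0.14 for transport and -0.17 for regulators. In HepG2 they were -0.04, -0.02, -0.03, 0.24 and 0.05 in the same order. The comparisons of lines and of siRNAs share libraries, so their values are not independent of each other.

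The 2 members whose levels varied most over the 4 libraries were ARG1, with a range of 2.53 on the log2(TPM + 1) scale, and ASL, with 2.17. The genes whose profiles over the 4 libraries lay nearest to that of ARG1, by Euclidean distance after centring and among 15485 genes, were NRCAM (0.0877), ZNF880 (0.0878) and LOC105369879 (0.0946). Nearest to ASL were GPX3 (0.0374), SERPINB1 (0.0403) and CUTALP (0.0590). The 4 points of each profile come from only 2 lines, and the likeness was given no test.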

How the data were processed

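Total RNA of 4 cultures was sequenced as stranded, polyadenylated libraries. For each library the authors deposited 1 table of genes on GRCh38 with TPM, FPKM and coverage. The deposited TPM values are normalized within a library to a sum of 1000000, the deposited FPKM are proportional to them, and the deposited coverage is not normalized for depth. The submitters' processing notes name FastQC 0.11.7, Trimmomatic 0.38, HISAT2 2.1.0 and StringTie 2.1.3b. Groups followed the labels.

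The column for gene names held no symbols, so genes were matched by NCBI Gene number (44698 of 46427, 96.3%, were in the RefSeq table, with all 10 members). Values on repeated gene numbers (49 to 51 per table) were summed. Each of 4 comparisons was a log2 ratio with a pseudocount of 1 TPM, a minimum of 1 TPM in 1 library and a 2-fold threshold. No test was run: each line and siRNA had 1 library, and no joint fit of both lines was made. The calculation was tested on simulated data. The members, gene lists and rules were chosen with earlier results of these data known. Text names all members, list genes past 2-fold with COP1-siRNA, the 3 highest and 3 lowest past 2-fold per list between the lines, the 3 nearest profiles of 2 members, COP1, and overlapping or copied genes; 2 genes of the lists are not reported here. Other settings numbered 10, with 2 more added after the values were seen. Python 3.11.15, numpy 2.4.6, pandas 2.3.3 and matplotlib 3.10.9 were used. The tables give no read counts, so no counting interval is given.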

Additional observations from a re-analysis of the deposited data

Results flagged for a closer look

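NAGS had differences of opposite sign in the lines with COP1-siRNA. In Huh7 the level went from 1.73 to 1.99 TPM, a log2 difference of 0.13, whereas HepG2 had 1.15 and then 1.10 TPM, a log2 difference of -0.04. The difference between these differences was 0.167 and was not tested, since 1 library per line and siRNA leaves no residual degree of freedom for it. Differences at least as large as those of NAGS were reached by 54.4% of genes counted in Huh7 and 85.0% in HepG2. ARG2 (-0.48 and -0.03) and ASS1 (0.24 and 0.04) lay farther apart between the lines, but with the same sign in both.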

How the results depend on the processing

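Each line and siRNA had 1 library, so none could be left out of a comparison. A joint fit of line and siRNA, which would pair the siRNAs by line and leave 1 residual degree of freedom, was not run. With COP1-siRNA against NC-siRNA, 0 members were past the threshold in either line under each of 10 other settings, a 1.5-fold threshold included, and 2 added after the values were seen. Between the lines, ASL and ARG1 were past 2-fold higher in Huh7 under all 12, and no member's difference changed sign.

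The number of members past 2-fold between the lines with NC-siRNA went from 5 to 3 with coverage over relative depth, with median-of-ratios scaling, with quantile normalization and with coverage on the TPM scale (added after the values were seen), as CPS1 and GLS2 no longer passed. With COP1-siRNA it went from 5 to 3 with coverage over relative depth and coverage on the TPM scale, where the same genes no longer passed, and with median-of-ratios scaling, where CPS1 (-0.89) and ASS1 (-0.88) no longer passed. Quantile normalization ended CPS1 (-0.91) and GLS2 (-0.88) there and added NAGS (1.01). GLS2 also ended with FPKM (-0.53 with NC-siRNA and -0.58 with COP1-siRNA) and with upper-quartile scaling with NC-siRNA (-0.98), and it was not counted at a minimum of 5 TPM or by the plain ratio. CPS1 ranged from -1.28 to -0.53 with NC-siRNA. ARG2 passed 2-fold with COP1-siRNA at a pseudocount of 0.1 (-1.03) and by the plain ratio (-1.04). Median-of-ratios scaling moved the median of all genes by 0.327 with NC-siRNA and 0.306 with COP1-siRNA. With FPKM and coverage the same 1 was added to smaller numbers for CPS1 and GLS2. GLS2, for example, was at 0.440 FPKM in HepG2 with NC-siRNA and was listed at 0 in Huh7. The plain ratio of CPS1 between the lines was nearly the same by coverage on the TPM scale as by TPM. Beyond the shift of all genes under a scaling and the 1 added, the cause was not tested. Read depth is unknown, so levels near or under 1 TPM have no stated precision.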
